A study of Bos taurus with 12 samples.

Results

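Integrins and laminins are partners in cell attachment: integrins are receptors in the cell membrane, each made of an alpha and a beta chain, and laminins are matrix proteins, each made of an alpha, a beta and a gamma chain. The genes were chosen by the names in the array's own annotation, as all non-control probes named ITGA, ITGB, LAMA, LAMB or LAMC followed by a digit, together with ITGAE, ITGAL, ITGAM and ITGAV. ITGAX was part of the rule, but none of the probes carried that name. The rule found 77 of 43653 probes and 37 of 25314 gene names. These were 15 integrin alpha chains, 8 integrin beta chains, 10 laminin chains and 4 genes that share the start of the name without encoding a chain (ITGB1BP1, ITGB1BP2, ITGB1BP3 and ITGB3BP). Each gene is given by its brightest probe, and 33 of the 37 genes could be tested, 30 of them chains.

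Integrins hold a ligand outside the cell and, through talin and kindlins, the actin cytoskeleton inside it, and the pairing of the chains decides the ligand. ITGB1 pairs with many alpha chains on most cells, ITGB2 is made by leukocytes, ITGB3 pairs with ITGAV on endothelium, osteoclasts and other cells and with ITGA2B on platelets, and ITGA6 with ITGB4 anchors epithelium to laminin in hemidesmosomes. In the uterus the ITGAV and ITGB3 pair and its ligand osteopontin are best known from embryo attachment in women, sheep and pigs.

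The samples were endometrial biopsies of 3 cows, described as fertile, that received the antiseptic povidone-iodine into the uterus. The same animals were biopsied at days 0, 2, 7 and 14, and the RNA of every sample went onto its own one-colour Agilent bovine array, giving 12 arrays and 3 per day. Forceps biopsies alternated between the left and right uterine horn, but the labels give neither the horn of a sample nor the age, breed or stage of the oestrous cycle of a cow, and do not say whether the day 0 biopsy preceded the antiseptic. No untreated cow was sampled, so the antiseptic, time, the oestrous cycle and repeated biopsy cannot be told apart. The share of probes well above background ran from 63.2 to 76.0% per array, lowest for cow 3 at day 2, and no probe was saturated. The small number of arrays limits the precision of all values.

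The deposited files disagree on which array is which sample. Each column of the value table matched 1 scanner file with a correlation of 1, but for 10 of 12 arrays the sample named by the table was not the sample to which the scanner file is linked. All values below use the names of the value table, under which each slide carries the arrays of a single cow, placed by day, so that slide and cow, and day and position, cannot be told apart. With the samples named by the links of the scanner files, 0 members passed in each of the comparisons (limma; 0 at an unadjusted p under 0.05 at day 2 or day 7 and 4 at day 14, against day 0). Every change reported below holds only if the table's names are right.

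Signals are given as log2 of the processed intensity relative to the 75th percentile of the array, which is 0. Changes are differences of log2 signal with their standard error from limma, with day as factor, cow as block and the p-value adjusted (Benjamini-Hochberg) over 33539 probes at a threshold of 0.05. Different probes bind with different strength, so levels are compared between days and not between genes.

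On day 2 against day 0, 4 of 33 members passed (12.1%), beside 2.77% of all 19128 genes tested: ITGB3 and ITGB2 rose (1.69% of all genes did), and ITGA9 and LAMC3 fell (1.08%). On day 7 against day 0, 7 of 33 passed (21.2%), close to the 18.5% of all genes. ITGB3, ITGB2, LAMA3, ITGA1, ITGA11 and ITGB1BP2 rose, beside 9.68% of all genes, and ITGA10 fell, beside 8.83%. On day 14 against day 0 limma called 0 members (11 at an unadjusted p under 0.05), beside 0.0889% of all genes (20.1% at the unadjusted p). A probe was tested if it was well above background on 3 of the 12 arrays, so a member that is dim on day 0 could enter the test only through the later days, and the counts cover the members that entered.

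The changes of the members leaned upward, by a small amount. The median log2 change of the 33 members was 0.22, 0.40 and 0.39 on days 2, 7 and 14 against day 0, beside -0.02, 0.01 and 0.02 over all genes. With normexp and quantile normalisation the medians of the members were 0.14, 0.15 and 0.19. Log2 changes above 0 were found for 26, 23 and 21 members (78.8, 69.7 and 63.6%), beside 47.7, 50.5 and 51.6% of all genes. The arrays of the later day and of day 0 did not overlap for 11, 20 and 13 members (33.3, 60.6 and 39.4%), beside 25.5, 38.8 and 25.5% of all genes. By kind of chain, the medians on day 7 were 0.28 for 14 integrin alpha chains, 1.02 for 7 integrin beta chains and 0.33 for 9 laminin chains.

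Fewer members passed without cow 1, without cow 2 or without the cow term. Without cow 3, fewer passed on day 2 but more on day 7. There ITGA4, ITGA5, ITGAV, ITGB1, ITGB7 and ITGB8 joined and ITGA11 was lost. The share over all genes in that fit is not given, so its calls do not set the members apart. Each fit without a cow had 3 residual degrees of freedom, against 6 in the main fit. A call lost in such a fit does not by itself show that a single cow carried the change. Without cow 1, 0 of the 33539 probes of the whole array passed on day 2 or day 7, and without cow 2, 0 passed on day 2 and 213 at day 7, none of them a member's brightest probe. Without the cow term 1 member (ITGB3) passed on day 2 and 3 (ITGB3, ITGB2 and LAMA3) on day 7. With only the 2 days compared in the fit, ITGB2 passed on day 2, and ITGB3, LAMA3, ITGA1 and ITGA6 at day 7.

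**Figure D1:**
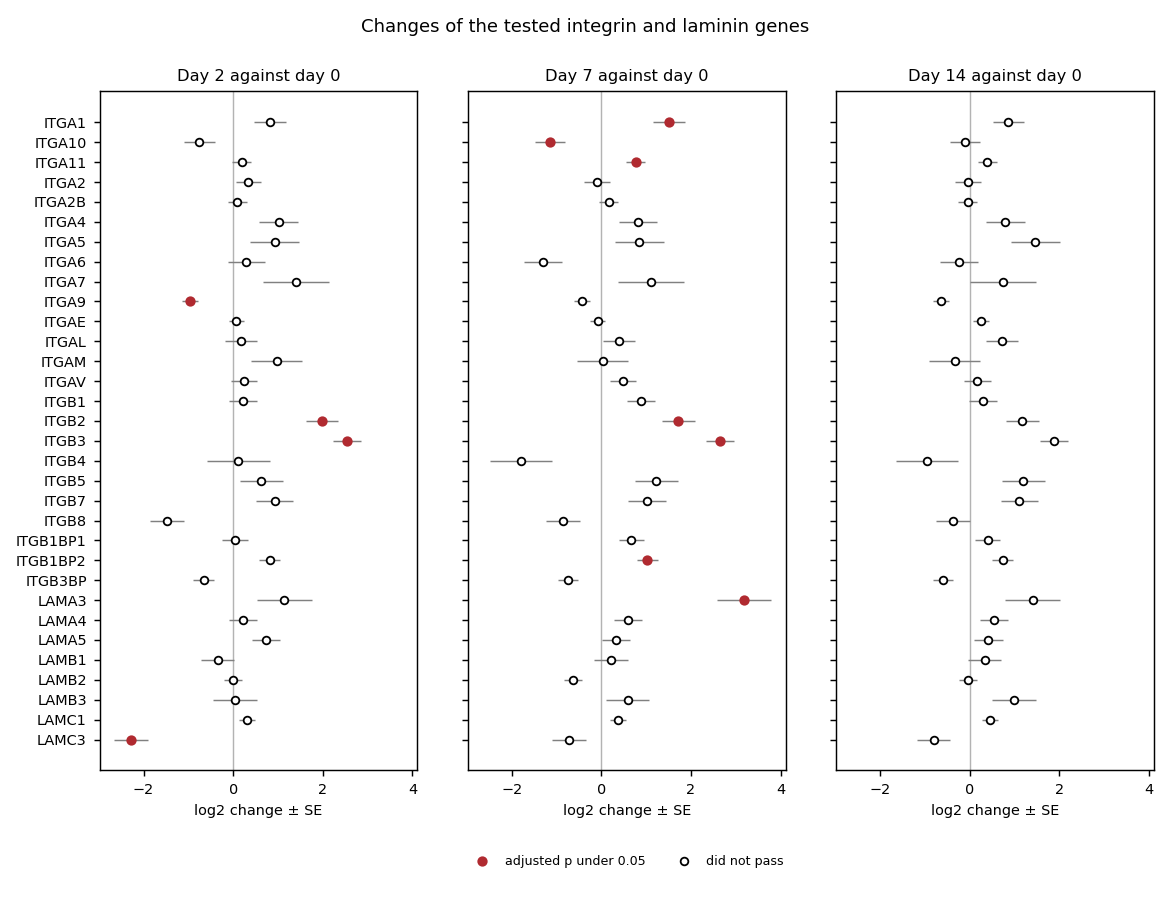
Log2 change ± SE of 32 of the 33 tested members on days 2, 7 and 14 against day 0 (x axis; 3 cows per day), with integrin alpha chains at the top, then beta chains, binding proteins and laminin chains. Filled points have an adjusted p under 0.05 (4 at day 2, 7 at day 7 and 0 at day 14), and open points did not pass.

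ITGB3, the beta chain of the receptors for vitronectin, fibrinogen and osteopontin, was measured on all arrays of days 2, 7 and 14 and was at background on day 0. Its log2 signal in cows 1, 2 and 3 was -7.55, -6.87 and -7.82 at day 0, -4.67, -5.00 and -4.94 at day 2, -4.54, -4.92 and -4.82 at day 7, and -6.13, -5.28 and -5.21 at day 14. All 9 later arrays lay above all 3 arrays of day 0, and on day 14 cow 1 was the lowest of the later arrays. ITGB3 stood above background in all 9 later arrays and in none of day 0, so its rise is a lower bound, which sets day 0 at the dimmest signal that counts as measured. The rise was at least 3.20-fold on day 2, 3.44-fold on day 7 and 2.01-fold on day 14, bounds that were not tested themselves. As measured, the log2 changes were 2.55 ± 0.31 at day 2 (adjusted p = 0.0124, limma) and 2.65 ± 0.31 at day 7 (0.00346). On day 14 the change as measured was 1.87 ± 0.31 and did not pass (0.0584). The changes were upward in 3 of 3 cows on each day. Both calls ended without cow 1 (log2 change 2.38, adjusted p = 0.265 at day 2, and 2.48, 0.0781 at day 7) and without cow 2 (2.88, 0.201, and 3.00, 0.0507). With another background correction (normexp with an offset, then quantile normalisation), which pulls dim signals together, the log2 changes shrank to 0.54 and 0.52 and still passed.
The ITGB3 probe, whose 60 bases read without a stop codon in 2 forward frames, is shown because it carries this change, and lies at chr19:47902942-47903001 on the + strand of build HGSC Btau_3.1, per the file headers:
ITGB3: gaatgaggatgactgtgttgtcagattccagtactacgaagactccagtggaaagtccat

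The known partners of ITGB3 did not pass on any day in the main fit. ITGAV, the vitronectin receptor alpha chain, had log2 signals of -0.69, -0.50 and -0.55 at day 0, -0.41, -0.69 and 0.08 at day 2, 0.31, 0.06 and -0.69 at day 7, and -0.31, -0.28 and -0.64 at day 14 in cows 1, 2 and 3. The days overlapped, and on day 7 cow 3 was at the level of day 0 while the other cows were above it (log2 change 0.48 ± 0.29, adjusted p = 0.285). On day 7 ITGAV passed under 1 of 13 alternatives, the fit without cow 3 (0.78, adjusted p = 0.0428, limma). ITGA2B, the alpha chain of the fibrinogen receptor of platelets, had -2.40, -2.23 and -2.64 at day 0, -2.45, -2.18 and -2.36 at day 2, -2.03, -2.50 and -2.26 at day 7, and -2.54, -2.70 and -2.16 at day 14. These values overlapped on all days, with log2 changes between -0.05 and 0.16. Of 5 platelet markers only PF4 could be tested, with log2 changes of 1.31, 0.83 and 0.95 on days 2, 7 and 14 that did not pass. The summed linear signal of the 3 platelet markers with a probe, in units of the 75th percentile, was 0.0435 to 0.165 at day 0, 0.115 to 0.246 at day 2, 0.0552 to 0.309 at day 7 and 0.0644 to 0.251 at day 14. Their part in the ITGB3 result was not tested.

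ITGB2, the beta chain of the leukocyte integrins, rose on day 2 and day 7. Its log2 signal in cows 1, 2 and 3 was -0.19, -0.67 and -0.62 at day 0, 1.53, 1.30 and 1.63 at day 2, 2.34, 1.11 and 0.22 at day 7, and 0.89, 0.81 and 0.33 at day 14. All later arrays were above all arrays of day 0, the cows were close together on day 2, and on day 7 cow 1 was highest and cow 3 lowest. The rise was 3.96-fold on day 2 (log2 change 1.99 ± 0.36, adjusted p = 0.0356, limma) and 3.29-fold on day 7 (1.72 ± 0.36, 0.0180), each in 3 of 3 cows. On day 14 the log2 change was 1.17 ± 0.36 and did not pass (0.138). ITGB2 had 4 tested probes, 3 of which passed on day 2 and 3 at day 7, with log2 changes of 1.92 to 1.99 and 1.44 to 1.72, though the brightest shares 54 of its 60 bases with another. The call of day 2 ended without cow 1 (2.12, 0.267), cow 2 (1.99, 0.313), cow 3 (1.85, 0.0526), the day 2 array of cow 3 (1.67, 0.0762) or the cow term (0.0568), and that of day 7 without cow 1 (1.31, 0.161) or cow 2 (1.68, 0.170).
Shown for ITGB2 is the tested probe that reads without a stop codon in all 3 forward frames (log2 change 1.98 at day 2, which did not pass), at chr1:146781070-146781129 on the + strand of the same build:
ITGB2: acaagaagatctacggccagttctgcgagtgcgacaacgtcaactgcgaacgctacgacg

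The alpha chains that pair with ITGB2 and the other leukocyte chains did not pass in the main fit. ITGAL, which with ITGB2 binds ICAM1 and other ICAMs, had log2 changes of 0.17, 0.40 and 0.72 on days 2, 7 and 14. ITGAM, the alpha chain of complement receptor 3 on neutrophils and macrophages, passed the background limit with 0, 2, 2 and 0 of 3 arrays over the 4 days. Its day 2 signal was at least 1.60-fold that of day 0, and the log2 change as measured, 0.97, did not pass (adjusted p = 0.369, limma). A second ITGAM probe, above background on 3 arrays in all, had 1.70 ± 0.52 at day 2 and did not pass (0.119). ITGB7 (1.02 at day 7) and ITGA4 (0.82), which together home lymphocytes to the gut, and ITGAE (-0.08), which holds lymphocytes in epithelium, did not pass either. Without cow 3, ITGB7 (1.13, adjusted p = 0.0302, limma) and ITGA4 (1.60, 0.0144) passed on day 7. The day 7 changes of ITGA4 were 1.83, 1.38 and -0.76 in cows 1, 2 and 3.

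General leukocyte markers moved in the same days as ITGB2. Of 5 tested, 2 rose on day 2 (CYBB and PTPRC), 3 at day 7 (the same with CORO1A) and 0 at day 14, and none fell. Their summed linear signal was 3.99 to 6.03 at day 0, 9.49 to 14.2 at day 2, 5.77 to 18.7 at day 7 and 8.24 to 10.3 at day 14, so that day 7 overlapped day 0 in the sum. Neutrophil markers had 1 of 5 higher on day 2 (S100A12) and 2 at day 7, S100A12 among them. Their sums were 0.766 to 1.30, 3.74 to 9.55, 1.54 to 5.97 and 1.25 to 2.67 over the 4 days. Macrophage markers had 1 of 8 higher on day 2 (CD68) and 3 at day 7 (CD14, CSF1R and CD68), with sums of 12.4 to 15.0, 15.5 to 25.1, 13.8 to 47.4 and 6.60 to 33.1. Every marker of these 3 lists with a probe was above background on at least 1 array. Whether leukocyte number accounts for the ITGB2 rise was not tested, and in tissue samples more cells of a type and more RNA per cell cannot be told apart. T and NK cell markers had 1 of 7 higher on day 2 (NKG7) and 2 on day 7 (NKG7 and CD2), dendritic cell markers 1 of 5 on day 7 (CD1B), and B cell markers 0 of 2 on either day. Over all genes, 1.69% rose on day 2 and 9.68% on day 7.

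**Figure D2:**
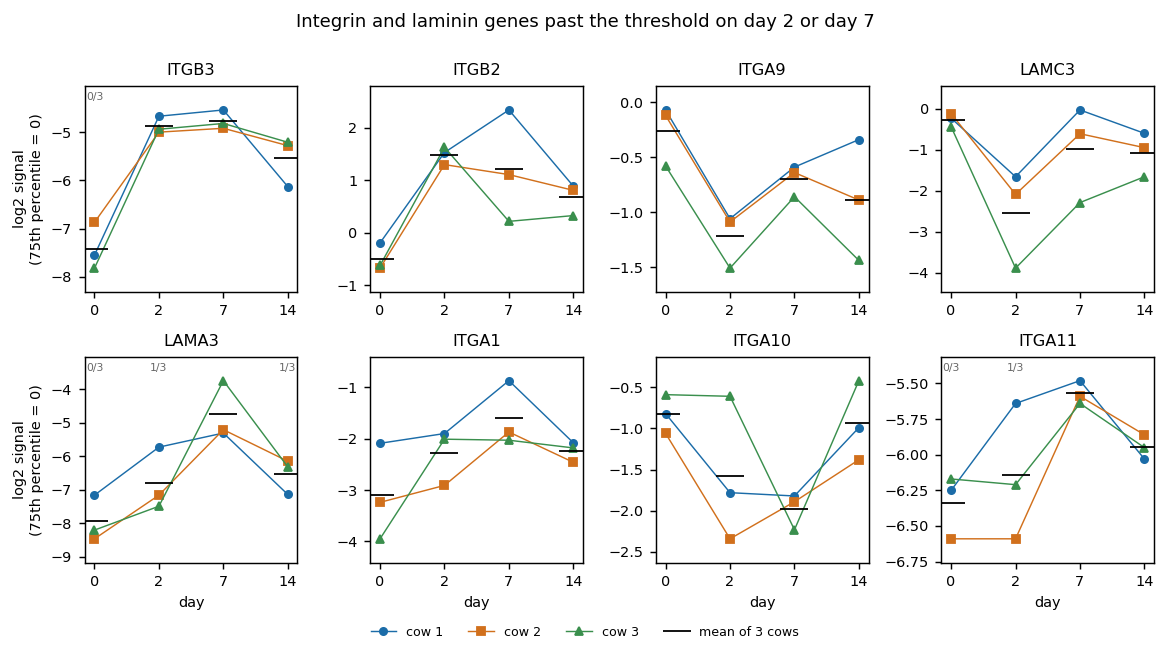
Log2 signal (y axis; 75th percentile of the array = 0) by day (x axis) of the 8 integrin and laminin chains that passed on day 2 or day 7, with a line per cow and a bar at the mean of the 3 cows. Grey fractions give the number of arrays well above background where this was under 3. ITGB3 and ITGB2 lie above day 0 on every later array, LAMC3 is lowest on day 2, and LAMA3 and ITGA11 are highest on day 7.

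Among the collagen-binding chains, ITGA1 and ITGA11 rose on day 7 and ITGA10 fell. ITGA1, a receptor for collagen IV and laminin, had log2 signals of -2.09, -3.24 and -3.95 at day 0, -1.90, -2.91 and -2.01 at day 2, -0.87, -1.87 and -2.03 at day 7, and -2.08, -2.46 and -2.18 at day 14 in cows 1, 2 and 3. Day 7 lay narrowly above day 0, where cow 1 was high, and the log2 change was 1.51 ± 0.35 (2.84-fold, adjusted p = 0.0232, limma; 3 of 3 cows). The gene's other probe passed too, with 2.12 ± 0.40 (0.0123). The ITGA1 call ended without cow 1 (1.65, 0.145), cow 2 (1.58, 0.164) or the cow term (0.0627), and with normexp the change was 0.98 and passed.
The brightest ITGA1 probe, free of stop codons in 2 forward frames, lies at chr20:27911466-27911525 on the - strand:
ITGA1: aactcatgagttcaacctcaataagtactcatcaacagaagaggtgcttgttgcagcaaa

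ITGA11, a receptor of fibroblasts for fibrillar collagen, was measured on day 7 and not on day 0. Its log2 signal was -6.25, -6.59 and -6.17 at day 0, -5.64, -6.59 and -6.21 at day 2, -5.48, -5.59 and -5.64 at day 7, and -6.03, -5.86 and -5.95 at day 14 in cows 1, 2 and 3. The days 7 and 14 lay above day 0 and day 2 overlapped it. ITGA11 was well above background on 0, 1, 3 and 3 of 3 arrays over the 4 days. The rise on day 7 was 1.70-fold as measured, and its bound had the same value (log2 change 0.77 ± 0.21, adjusted p = 0.0421, limma, 3 of 3 cows). The ITGA11 call ended under 9 of 13 alternatives. Among them were leaving out cow 1 (0.77, 0.212), cow 2 (0.65, 0.220) or cow 3 (0.89, 0.0881), dropping the cow term (0.0517), no filter (0.0634), and normexp (0.14, 0.331).

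ITGA10, a collagen receptor best known from cartilage, had log2 signals of -0.82, -1.06 and -0.59 at day 0, -1.78, -2.34 and -0.61 at day 2, -1.82, -1.89 and -2.23 at day 7, and -0.99, -1.38 and -0.42 at day 14 in cows 1, 2 and 3. On day 2 cows 1 and 2 were low and cow 3 was at its day 0 level, while on day 7 all were below day 0. The fall on day 7 was 2.23-fold (log2 change -1.16 ± 0.34, adjusted p = 0.0475, limma; 3 of 3 cows), and it ended without cow 1 (-1.24, 0.256), cow 2 (-1.32, 0.158) or the cow term (0.0841), with no filter (0.0656) and with normexp (-0.94, 0.0540). ITGA2, the remaining collagen-binding chain, had -0.10 and did not pass.

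Smooth muscle markers rose on day 7 as well, 3 of 6 tested (TAGLN, DES and ACTA2), beside 9.68% of all genes. Their summed linear signal was 39.6 to 58.1 at day 0, 61.1 to 424 at day 2, 149.5 to 317 at day 7 and 60.5 to 334 at day 14, highest in cow 3 at day 2. Stromal fibroblast markers had 0 of 6 past the threshold, with sums of 168 to 174, 178 to 228, 196 to 226 and 168 to 276 over the 4 days. Their part in the changes of ITGA1, ITGA10 and ITGA11 was not tested.

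ITGA9, an alpha chain that pairs with ITGB1 and binds tenascin C and osteopontin, fell on day 2 by the brightest probe. The log2 signal was -0.07, -0.12 and -0.58 at day 0, -1.06, -1.09 and -1.51 at day 2, -0.59, -0.64 and -0.86 at day 7, and -0.34, -0.89 and -1.44 at day 14 in cows 1, 2 and 3. All 3 cows dropped by nearly the same step on day 2, and the day 2 arrays lay below all day 0 arrays. The log2 change was -0.96 ± 0.18 (1.95-fold lower, adjusted p = 0.0364, limma; 3 of 3 cows). The gene's other probe disagreed: it had -0.09 at day 2 and rose by 0.65 ± 0.18 at day 7 (0.0403), while the brightest had -0.44 at day 7 (0.120). The mean of both probes did not pass on day 2 (-0.52, 0.100), and the call also ended without cow 1 (-0.95, 0.354), cow 2 (-0.96, 0.318), cow 3 (-0.97, 0.0712), the day 2 array of cow 3 (-0.99, 0.0696) or the cow term (0.120), and with no filter (0.0555).

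ITGB1, the common beta chain, did not pass by its brightest probe. Its log2 signal in cows 1, 2 and 3 was 1.1, 1.00 and 1.76 at day 0, 1.20, 0.86 and 2.46 at day 2, 2.11, 2.33 and 2.09 at day 7, and 1.34, 1.65 and 1.73 at day 14. Day 7 lay above day 0 on all arrays, and the other days overlapped it. The log2 change on day 7 was 0.89 ± 0.31 (adjusted p = 0.0826, limma), and 0.91 ± 0.26 by the gene's other probe, which passed (0.0459). The brightest probe passed as well without cow 3 (1.17, 0.0259), without the day 2 array of cow 3 (0.0321) or with array weights (1.15, 0.0185).
The brightest ITGB1 probe is shown because it reads the cytoplasmic tail of the chain, where the NPxY motif (asparagine, proline, any residue, tyrosine) binds talin and kindlins. Capitals mark the codons of the motif, searched on the printed strand in any frame, which occur at 2 places. Such codons were found in 1 of 77 member probes (1.30%) and 129 of 43653 probes of the array (0.296%), and at more than 1 place in this probe alone. It covers chr13:19273035-19278848 on the + strand, a span of 5814 bases for 60 bases of probe, and so crosses an intron:
ITGB1: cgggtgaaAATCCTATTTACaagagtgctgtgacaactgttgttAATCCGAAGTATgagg

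The remaining integrin chains were tested without a call by their brightest probe in the main fit. ITGA5, the fibronectin receptor alpha chain, had log2 changes of 0.93, 0.84 and 1.47 on days 2, 7 and 14. The day 14 value rested on cow 3, with changes of 0.60, 0.32 and 3.48 in cows 1, 2 and 3, and was 0.46 without that cow. The other ITGA5 probe, measured on 7 arrays in all, above background on 3 of 3 arrays at day 7 and 0 of 3 at day 0, passed on day 7 (log2 change as measured 1.07 ± 0.20, adjusted p = 0.0114, limma). ITGA7, a laminin receptor of muscle, had 1.41, 1.101 and 0.74, and ITGB5, which pairs with ITGAV, 0.63, 1.23 and 1.20. ITGB8, whose pair with ITGAV activates latent TGF-beta, had -1.47, -0.86 and -0.37 (adjusted p = 0.0831 at day 2). ITGA3, a laminin receptor chain of epithelium, was above background on 0 of 12 arrays and ITGB6, an epithelial partner of ITGAV, on 2, so neither was tested.

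Laminins begin with LAMA3, the alpha chain of the laminin that epithelium lays down under hemidesmosomes and in healing wounds, which rose on day 7. Its log2 signal in cows 1, 2 and 3 was -7.16, -8.46 and -8.20 at day 0, -5.73, -7.16 and -7.49 at day 2, -5.31, -5.21 and -3.75 at day 7, and -7.14, -6.15 and -6.32 at day 14. All arrays of day 7 lay above all arrays of the other days, and cow 3 was highest. LAMA3 was well above background on 0, 1, 3 and 1 of 3 arrays over the 4 days, and rose at least 3.45-fold on day 7. As measured, the log2 change on day 7 was 3.18 ± 0.61, upward in 3 of 3 cows (adjusted p = 0.0130, limma). On day 14 it was 1.40 ± 0.61 and did not pass (0.239). The call ended without cow 1 (3.85, 0.0781) or cow 2 (3.15, 0.136), and with normexp the change shrank to 0.68 and passed. The gene's other probe was above background on 0 of 12 arrays.
The LAMA3 probe, free of stop codons in 2 forward frames, lies at chr24:33870663-33870722 on the + strand:
LAMA3: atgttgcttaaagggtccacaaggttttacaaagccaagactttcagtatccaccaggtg

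LAMB3, a beta chain that joins LAMA3, and the hemidesmosome integrin that binds their laminin did not pass by their brightest probes. LAMB3 had log2 changes of 0.04, 0.58 and 0.98 on days 2, 7 and 14 (adjusted p at least 0.298). The hemidesmosome integrin pointed down on day 7: ITGA6 had -1.30 ± 0.42 (0.0649) and ITGB4 -1.80 ± 0.69 (0.106), each lower in 3 of 3 cows. Of 3 ITGA6 probes 1, not the brightest, passed with -1.63 ± 0.37 (0.0232). Epithelial markers had 0 of 6 past the threshold on each day, with sums of 55.2 to 68.3 at day 0, 29.1 to 89.0 at day 2, 43.3 to 73.7 at day 7 and 53.8 to 65.8 at day 14, and all 6 were measured.

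**Figure D3:**
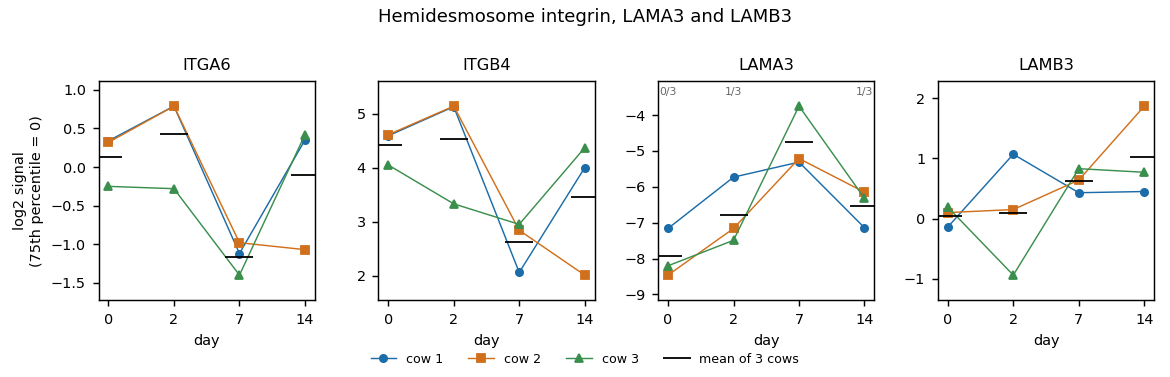
Log2 signal (y axis; 75th percentile of the array = 0) by day (x axis) of ITGA6 and ITGB4, the hemidesmosome integrin, and of LAMA3 and LAMB3, chains of its laminin, with a line per cow and a bar at the mean. Grey fractions give arrays well above background where under 3. ITGA6 and ITGB4 are lowest on day 7 in cows 1 and 3 and on day 14 in cow 2, while LAMA3 is highest on day 7 in each cow.

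LAMC3, a gamma chain of laminins that are not tied to epithelial anchoring, fell on day 2. The log2 signal was -0.23, -0.12 and -0.44 at day 0, -1.66, -2.09 and -3.89 at day 2, -0.03, -0.61 and -2.29 at day 7, and -0.60, -0.95 and -1.66 at day 14 in cows 1, 2 and 3. Each cow was lowest on day 2, cow 3 most of all, and on day 7 cow 1 was above its day 0 level. The fall on day 2 was 4.87-fold (log2 change -2.28 ± 0.38, adjusted p = 0.0276, limma; 3 of 3 cows). Of 3 tested probes 2 passed on day 2, the second with -1.73 ± 0.25 (0.0197), and the third had -0.70. The call ended without cow 1 (-2.71, 0.265), cow 2 (-2.44, 0.291), the day 2 array of cow 3 (-1.96, 0.0604) or the cow term (0.117).
The second LAMC3 probe, free of stop codons in all 3 forward frames, lies at chr11:105024120-105024179 on the + strand:
LAMC3: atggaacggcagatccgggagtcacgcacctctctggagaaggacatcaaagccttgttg

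LAMC1, the gamma chain of most laminins, had log2 signals of -3.20, -3.24 and -3.67 at day 0, -2.78, -3.14 and -3.29 at day 2, -2.95, -3.17 and -2.89 at day 7, and -2.92, -2.79 and -3.07 at day 14 in cows 1, 2 and 3. Days 7 and 14 lay above day 0 by a small step and did not pass (log2 changes 0.37 ± 0.18 and 0.44 ± 0.18, adjusted p = 0.181 and 0.212, limma). The gene's other probe, which shares 45 of its 60 bases with the brightest, had -0.21 at day 7. LAMA5, the main alpha chain of adult epithelial basement membrane, had -6.30, -6.74 and -6.55 at day 0, -5.69, -6.24 and -5.45 at day 2, -5.82, -6.65 and -6.13 at day 7, and -6.76, -5.87 and -5.72 at day 14. Its brightest probe cleared background on 0, 2, 2 and 2 of 3 arrays over the 4 days, with bounds of 1.66-, 1.25- and 1.33-fold. The log2 changes as measured, 0.74, 0.33 and 0.42, did not pass. LAMA5's other probe, measured on 6 arrays, rose by 0.61 ± 0.17 at day 7 (0.0427). LAMA4 and LAMB1, chains of vessel and stromal laminins, had 0.59 and 0.21 at day 7, and LAMB2 had -0.64 ± 0.20 (0.0590). The other LAMB2 probe, above background on 12 arrays, pointed the other way at day 7 (0.17, adjusted p = 0.614, limma). LAMA1, an alpha chain of the embryo, was above background on 0 of 12 arrays.

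The genes named after integrins that encode no chain went apart from each other. ITGB1BP2 (melusin), a binding partner of ITGB1 known from mouse muscle, had log2 signals of -5.69, -5.79 and -5.70 at day 0, -5.28, -5.30 and -4.16 at day 2, -4.80, -5.00 and -4.31 at day 7, and -5.28, -4.93 and -4.75 at day 14 in cows 1, 2 and 3. Every later array was above all arrays of day 0, and on day 7 ITGB1BP2 rose 2.04-fold (log2 change 1.03 ± 0.23, adjusted p = 0.0227, limma; 3 of 3 cows). That call ended without cow 1 (1.09, 0.182), cow 2 (1.14, 0.139) or the cow term (0.0545), and with normexp (0.17, 0.234). ITGB1BP1, which binds the ITGB1 tail and limits integrin activation, had 0.66 at day 7 (0.132), and ITGB3BP, a protein of the centromere, -0.75 (0.0526). ITGB1BP3, which RefSeq names NMRK2, was above background on 0 arrays.

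Over the 4 days together, the F-test of limma called 4 of 33 members (12.1%), beside 8.07% of all genes: ITGB3 (adjusted p = 0.0123), LAMC3 (0.0371), ITGB2 (0.0420) and ITGA9 (0.0492). Between the later days limma called 0 members. The counts at an unadjusted p under 0.05 were 7 for day 7 against day 2, 2 for day 14 against day 2 and 5 for day 14 against day 7, beside 18.9, 12.9 and 18.2% of all genes. Of all genes 0.512, 0.00 and 0.141% passed in these comparisons. The chains with the widest step between days 2 and 7 were LAMA3 (log2 change 2.04 ± 0.61, 0.140), ITGB4 (-1.91 ± 0.69, 0.198), ITGA6 (-1.60 ± 0.42, 0.114) and LAMC3 (1.57 ± 0.38, 0.0981).

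Several members had more than 1 probe, and the probes mostly pointed the same way. Of 20 members with at least 2 tested probes, 16 had probes of the same sign in each of the comparisons with day 0. All member probes have 60 bases, the longest run shared by probes of different members was 11 bases, and 17 of the 77 span an intron in the coordinates of the file headers. By accession, 40 member probes matched a RefSeq gene, 39 with the same symbol.

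The lists of this paragraph and the next were chosen with earlier results of these data known, so their shares are descriptive and no independent support. Of 12 tested ligands of integrins in matrix and plasma, 3 rose on day 2, beside 1.69% of all genes, and 7 on day 7, beside 9.68%. On day 14 0 passed, on no day did any fall, and the median log2 changes were 1.44, 1.66 and 1.09, beside the -0.02, 0.01 and 0.02 of all genes. On day 2, osteopontin (SPP1), a ligand of ITGB3 and ITGA9, had log2 signals of 0.86, 1.89 and 4.20, against -2.53, -1.99 and -4.17 at day 0. SPP1 was thus high on day 2 in each cow, most in cow 3, and on day 7 it was -0.60, -2.08 and -3.41, with day 7 overlapping day 0. Fibronectin (FN1), bound by ITGA5 and ITGAV, rose by 1.74 ± 0.33 at day 2 and 2.36 ± 0.33 at day 7, and CYR61, a matricellular ligand of ITGAV, by 1.90 ± 0.40 and 2.20 ± 0.40. On day 7 tenascin C (TNC), a ligand of ITGA9 and ITGAV, rose by 4.86 ± 0.61 and THBS1 by 1.78 ± 0.49. Of 9 tested ligands on cells, 0 passed on day 2 and 1 at day 7, ICAM1, a ligand of ITGAL with ITGB2 (0.65 ± 0.19, adjusted p = 0.04995).

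The basement membrane partners of laminin and the inner partners of integrins were tested as well. Of 20 tested basement membrane genes 1 rose on day 2 (SPARC, 1.12 ± 0.21), and 7 rose and 1 fell on day 7, with shares over all genes of 1.69% higher on day 2 and 9.68% higher and 8.83% lower on day 7. The list had medians of 0.27, 0.48 and 0.37 on days 2, 7 and 14. The largest were COL15A1 (2.31 ± 0.54), NID2, a nidogen that ties laminin to collagen IV (1.81 ± 0.39), COL4A2 (1.54 ± 0.30) and NTN4, a netrin that binds laminin (1.40 ± 0.26). AGRN, a laminin-binding proteoglycan, fell by 0.75 on the log2 scale. Of 24 tested genes of integrin activation and focal adhesion 2 rose on day 2 (1.69% of all genes) and 6 on day 7 (9.68%), none fell, and the medians were 0.76, 0.83 and 0.50. FERMT3, the kindlin of blood cells that activates ITGB2 and ITGB3 integrins, rose by 1.78 ± 0.33 at day 2 and 1.39 ± 0.33 at day 7, and SYK, a kinase of blood cells, by 1.61 ± 0.32 at day 2. On day 7 the kinase-like scaffold ILK (1.38 ± 0.32), ACTN4 (1.13 ± 0.33) and ZYX (1.07 ± 0.25), which link integrins to actin, rose. In these lists 0 genes passed on day 14 (limma).

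**Figure D4:**
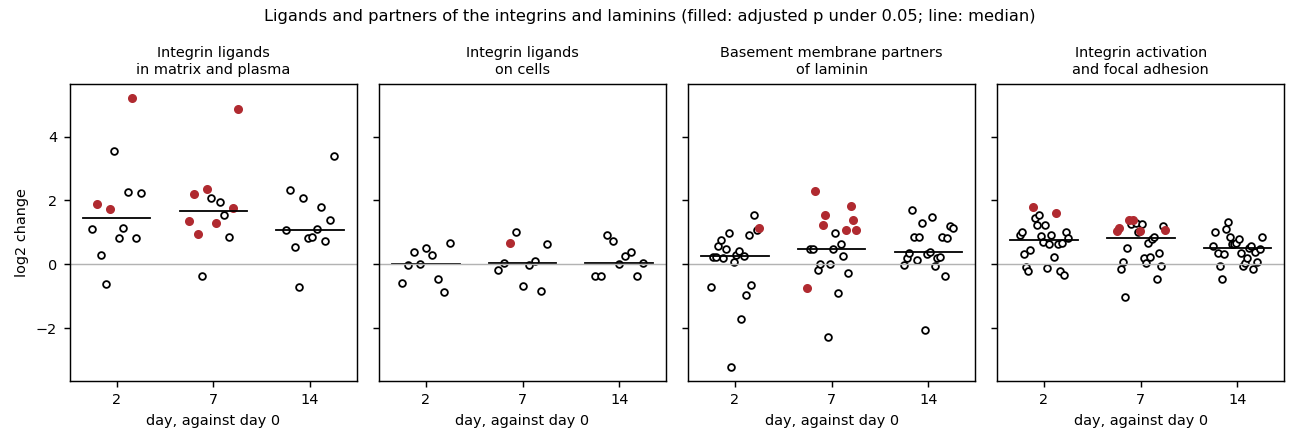
Log2 change (y axis) on days 2, 7 and 14 against day 0 (x axis) of the tested genes of 4 lists of integrin ligands and partners, a point per gene. Filled points have an adjusted p under 0.05 and lines are medians. The medians of ligands in matrix and plasma are 1.44, 1.66 and 1.09, and those of the other lists stay under 0.9.

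Single vessel markers and steroid receptors passed as well. Of 7 endothelial markers 1 rose on day 2 (PECAM1) and 2 at day 7 (PECAM1 and VWF), beside 1.69 and 9.68% of all genes. The median log2 changes of the 7 were 0.40 and 0.24, and their sums were 16.6 to 21.6 at day 7, against 16.5 to 21.6 at day 0. Of 5 endometrial markers 2 rose on day 7, ESR1 and PGR, the receptors of oestradiol and progesterone. MSX1, a transcription factor of the uterus, had -0.86 on day 7 and did not pass (adjusted p = 0.0703, limma). The summed linear signal of the endometrial markers was lower on day 7 than on day 0 without overlap, with 35.8 to 43.9 at day 0, 29.1 to 43.0 at day 2, 25.4 to 31.0 at day 7 and 35.5 to 47.8 at day 14. The part of these cells and hormones in the results was not tested.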

How the data were processed

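Endometrial RNA of 3 cows on 4 days was measured on 12 one-colour arrays. The scanner files hold intensity values per spot as deposited by the authors, from Agilent's Feature Extraction software, for which the file headers record 11.5.1.1 and the submitters' processing notes 10.5.1.1. A table of log2 values was deposited as well, but how the authors computed it was not given in the sources used here. Matched to the scanner values over 43622 probes, each of its columns was the log2 intensity less the 75th percentile of the array and the median of the probe, and the table named the samples.

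From the processed intensity, log2 was taken and each array's 75th percentile subtracted. The 1417 control spots and 31 probes with outlier flags were left out, and 33539 probes well above background on at least 3 arrays were tested with limma 3.58.1 in R 4.3.3 (day as factor, cow as block, 6 residual and 2.33 prior degrees of freedom, Benjamini-Hochberg at 0.05). The scripts were tested on simulated data. The pairing comes from the design text. Deviations from the day means had a mean correlation of 0.285 within cows (18 array pairs, lowest 0.0235) and of -0.136 between cows (36 array pairs). Subtracting the mean of 3 cows pushes the value between cows below 0 when the value within cows is above it. Slide and cow cannot be told apart, so these values do not test the pairing. A bound sets the dim day, per array, at the higher of its own signal and the lowest signal among probes well above background. The p-values belong to the changes as measured and not to the bounds.

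The members and gene lists were chosen with earlier results of these data known. Values on every array are given for members past the threshold against day 0 or in the F-test, and for ITGB1, ITGAV, ITGB2, ITGB3, ITGA2B, LAMC1 and LAMA5. From each list at most 4 genes a comparison are named, those past the threshold with the largest changes, and every marker past the threshold is named for the cell type lists set beside a result. A member and a marker that these rules would name are not reported here, though the counts and sums include them. Alternatives left out the cow term, each cow, the day 2 array of cow 3 and the filter, and changed the sample names, background correction, normalisation, source of values, days in the fit, array weights and the probe of a gene.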

Additional observations from a re-analysis of the deposited data

Results flagged for a closer look

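A probe named only by a transcript number in the array annotation, which RefSeq pairs with ITGA8, an integrin alpha chain, was outside the rule and used in none of the comparisons above, but stood above its day 0 level. Its log2 signal in cows 1, 2 and 3 was -0.61, -0.93 and -0.97 at day 0, 0.91, -0.14 and 2.52 at day 2, 3.27, 1.86 and 1.67 at day 7, and 0.67, 1.78 and 2.92 at day 14. All later arrays lay above those of day 0. The log2 change was 3.098 ± 0.71 SE on day 7 (adjusted p = 0.0230, limma, higher in 3 of 3 cows), 1.93 at day 2 (0.176) and 2.62 at day 14 (0.107). Groups of 3 arrays are too small for the test of single outlying arrays.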

How the results depend on the processing

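With the samples named by the scanner files' links, 0 members passed on day 2, on day 7 and in the F-test, and changes turned sign: on day 2 ITGA9 0.058, ITGB2 -0.72, ITGB3 -0.42, ITGA2B -0.021, ITGAV -0.23, ITGB1 -0.40, LAMA5 -0.64, and LAMC1 -0.12, on day 7 ITGA1 -1.14, ITGA10 0.19, ITGA11 -0.082, ITGB2 -0.79, ITGB3 -0.42, LAMA3 -0.45, ITGA2B -0.32, LAMA5 -0.42, and LAMC1 -0.23, and on day 14 ITGB2 -0.50, ITGA2B 0.031, ITGAV -0.15 and LAMC1 -0.11. The other changes of sign were of changes that did not pass: ITGA2B (day 14, -0.31 to 0.17 leaving out a cow; day 2, -0.0061 to 0.16 leaving out a cow and -0.0082 by the mean of its probes; day 7, -0.084 with array weights), ITGAV on day 2 (-0.11 without the day 2 array of cow 3, -0.074 with array weights, 0.041 to 0.46 leaving out a cow), ITGB1 on day 2 (-0.023 to 0.40 leaving out a cow, -0.17 without that array) and LAMA5 on day 14 (-0.22 with array weights).

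Without the replicate block (no cow term) 1 member passed on day 2, 3 on day 7 and 2 in the F-test. Leaving out a cow gave 0 to 3 members on day 2 and 0 to 12 on day 7, the most without cow 3 on both days. It gave 0 to 2 for day 7 against day 2 (ITGB1 and LAMC3 without cow 3) and 0 to 6 in the F-test. Without the day 2 array of cow 3, 1 passed on day 2, and with only the 2 days compared 1 passed on day 2 (ITGB2) and 4 on day 7. With no filter 1 passed in the F-test (ITGB3). On day 14, 1 passed with normexp (ITGA9), 1 with quantile normalisation (ITGB3) and 1 with array weights (ITGB2). Array weights gave 9 on day 2, 14 on day 7, 13 for day 7 against day 2, 20 for day 14 against day 2, 12 for day 14 against day 7 and 14 in the F-test, but the weights ran from 0.184 to 11.2 and their estimation did not converge. The authors' value table gave 4, 7 and 0 on days 2, 7 and 14. The counts of this paragraph stand without the shares over all genes under the same settings, so they do not set the members apart from other genes. The cause of the differences between settings was not tested. Dim probes limit ITGB3, LAMA3 and ITGA11, whose day 0 signals are at background.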

Other observations

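Other probes for chains outside the rule gave values without a call. ITGAD, a leukocyte integrin alpha chain, had 4 probes, each above background on 0 of 12 arrays. ITGBL1, an integrin-like secreted protein, was above background on 10 arrays and had log2 changes of 1.57 on day 2, -1.99 on day 7 and -1.46 on day 14 against day 0, with adjusted p-values of 0.609, 0.407 and 0.628 (limma).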
